A study of Mus musculus with 2 samples.

Results

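The clustered histone genes of mouse sarcoma cells were examined after silencing of circCsnk1g3, a circular RNA made from exons of the Csnk1g3 gene. Members were the rows of the count table whose symbol begins with Hist, a digit and h, and 69 of 25509 genes met this rule. They were grouped by the histone class in the symbol (6 H1, 19 H2A, 19 H2B, 12 H3 and 13 H4 rows) and by the genomic cluster (55 in Hist1, 11 in Hist2, 2 in Hist3 and 1 in Hist4). The symbol alone set membership, but the group was taken up with its values in these libraries already known, so that its direction is given as a description and no test of it was made. 1 symbol, Hist2h2bb, stood in 2 rows, of which 1 (ENSMUSG00000050936) is a long noncoding RNA gene under another name in the GENCODE M21 annotation used here.

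The data are 2 libraries of poly(A)-selected RNA, 1 per condition. Both came from soft-tissue sarcoma cells of C57BL/6 origin, derived from mesenchymal stem cells with p53 knocked out (p53-/-) and Ccne1 overexpressed (Ccne1+), which had grown as a subcutaneous tumor, been seeded in the lungs of secondary recipients and been recovered from lung foci. They were then transduced with a short hairpin RNA, either against the backsplice junction of circCsnk1g3 (shcircCsnk1g3) or the control hairpin (shCTR). The 2 libraries therefore share the p53 loss and the Ccne1 transgene, and whether a difference between them comes from the hairpin, from the culture or from the library cannot be told apart.

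Nucleosomes wrap DNA around a core of histones H2A, H2B, H3 and H4, and linker histone H1 binds where the DNA enters and leaves. The clustered genes provide the bulk of these proteins while DNA is copied in S phase, and each class is encoded by many nearly identical genes. Most of their mRNAs end in a conserved stem-loop, bound by SLBP, in place of a poly(A) tail, and are degraded when replication stops. Some members are also transcribed past the stem-loop to a polyadenylation site, and such transcripts are the ones a poly(A) library is expected to retain best. Replication-independent histones such as H3f3b, H2afz and H1f0 lie outside the clusters and have ordinary poly(A) tails.

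The stem-loop is shown because it is what separates these mRNAs from others in a poly(A) library. A script searched each annotated transcript (GENCODE M21, GRCm38) for GG, NNN, TTT, NN, A, NNN and CC in this order after the stop codon, with the bases on both sides able to pair. It found the 16-base element in 44 members, between 21 and 58 bases after the stop codon, in the 3′ untranslated part of the exon. Among 21834 other protein-coding genes, 0.188% held such a run in the last 2000 bases. There were 6 forms, given 5′ to 3′ as DNA with the paired stem in capitals.
Most common form, in 26 genes (3 H1, 10 H2A, 8 H2B and 5 H3): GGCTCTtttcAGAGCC
Form of 6 genes (1 H1, 2 H2B and 3 H3): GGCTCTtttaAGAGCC
Form of 1 H2A gene: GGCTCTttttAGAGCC
Form of 7 H4 genes: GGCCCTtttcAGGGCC
Form of 2 H4 genes, Hist1h4i and Hist2h4: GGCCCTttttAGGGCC
Form of 2 other H4 genes: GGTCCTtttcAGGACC
All 33 stem-loops found in H1, H2A, H2B and H3 genes had the stem GGCTCT. None of the 11 in H4 genes did, and 9 of these had GGCCCT and 2 had GGTCCT. In Hist1h4i the element lay at chr13:22040966-22040981 on the minus strand, and in Hist1h1d at chr13:23555787-23555802 on the plus strand.

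Total counts were 38792143 for shcircCsnk1g3 and 42709996 for shCTR. Levels are given as CPM (the count divided by the TMM-scaled library size), and log2 fold changes of shcircCsnk1g3 against shCTR use a prior count of 2. A minimum of 10 counts in either library was met by 12941 genes, which are called tested. Each fold change is followed by a 95% exact (Clopper-Pearson) range made from both counts, and this range covers counting error between these 2 libraries only. Of the 10 mesenchymal marker genes, 9 were above 3 counts, with summed levels of 12487 CPM in shcircCsnk1g3 and 13026 CPM in shCTR. Of 9 leukocyte rows, 2 were above 3 counts, Cd14 with 1844 and 1774 (0.16, 0.07 to 0.26) and Cd68 with 87 and 155 (-0.71, -1.12 to -0.34). The 9 rows summed to 49.3 and 45.7 CPM, and the defining marker Ptprc had 1 and 0 counts. Endothelial markers summed to 0.434 and 0.615 CPM with 2 of 5 above 3 counts, and lung epithelial markers to 2.37 and 1.23 CPM with 2 of 7 above it, Epcam and the surfactant genes being at 0. Krt8 had 92 and 46 counts and Cdh1 had 1 and 6, and the part of such cells in the histone values was not tested. Ccne1 had 893 counts in shcircCsnk1g3 and 963 in shCTR. Trp53 had 3841 and 4334 counts, and since the labels do not give the deleted part of the gene, this count does not check the knockout. Csnk1g3, the host gene, had 2159 and 2411 counts, but a circular RNA has no poly(A) tail, so that these counts do not check its silencing.

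Summed over the members, histone counts were higher in the shcircCsnk1g3 library. The 69 genes held 5838 counts in shcircCsnk1g3 and 4630 in shCTR, which is 0.0150% and 0.0108% of all counts, or 149 and 110 CPM. The ratio of the scaled sums was 1.36, a log2 ratio of 0.44 (0.39 to 0.50). The members thus took a small share of either library.

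Single members differed far more widely than this sum. Of the 69, 7 had no count in either library, 46 had more CPM in shcircCsnk1g3 and 16 had fewer. At least 10 counts in 1 library were reached by 53, and 9 of these reached it in 1 library alone (5 in shcircCsnk1g3 and 4 in shCTR), so that such genes had to differ. The 53 had a median log2 fold change of 0.49, from -2.86 to 3.86, against 0.00 for the 12941 genes tested. It was above 0 for 39 of the 53 and for 50.4% of all genes tested. Of the 53, 25 were at least 1.5-fold higher and 4 at least 1.5-fold lower, where 5.39% of all genes tested were higher and 6.31% lower by this measure. At 2-fold the members numbered 15 higher and 4 lower, and the shares of all genes were 2.13% and 2.55%. The counting interval lay above 0 for 24 members and below 0 for 4, against 26.9% and 28.2% of all genes tested. These shares come mostly from genes with at least 200 summed counts, which 7 of the 53 members reached. They are thus not shares at like depth.

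**Figure D1:**
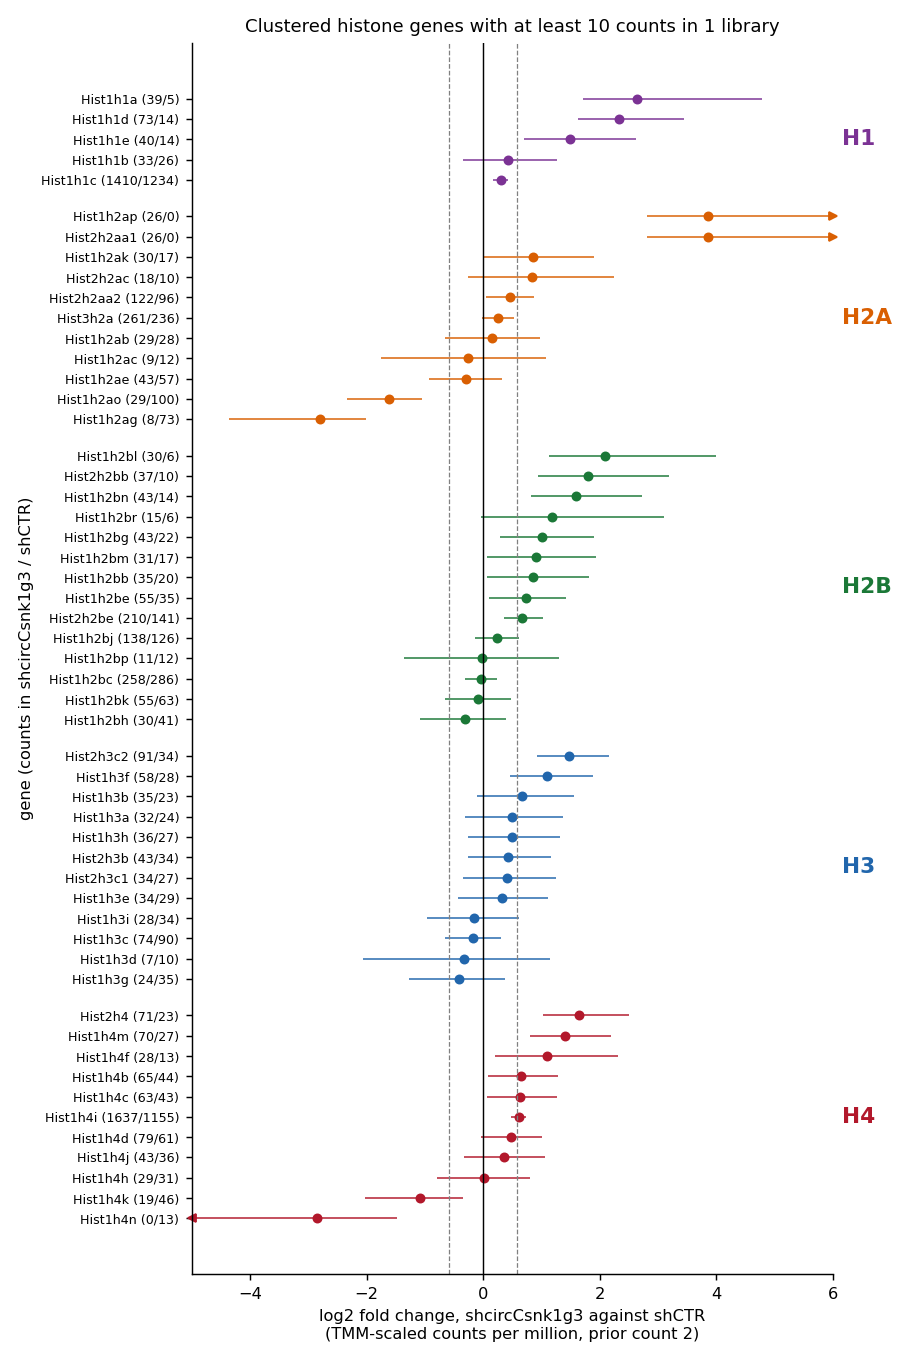
Log2 fold change (x axis) of the 53 members with at least 10 counts in 1 library, by class, each with its counts in shcircCsnk1g3 and shCTR beside the symbol. Points are fold changes with a prior count of 2, bars are 95% exact counting intervals (arrows mark bars that do not end because 1 library had 0 counts), and dashed lines mark 1.5-fold; 39 points lie above 0 and 14 below.

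Most members had few counts, and genes with few counts scatter widely. The median member of the 53 had 36 counts in shcircCsnk1g3 and 28 in shCTR, and 28 counts in each library give an interval of 0.81 to either side on the log2 scale. Of the members with at least 20 and under 200 summed counts, 23 of 44 were at least 1.5-fold higher and 3 at least 1.5-fold lower, where 19.1% and 18.8% of all 1998 genes of this abundance were. Their median was 0.64, against 0.03 for all genes of this abundance. Of the 7 members with at least 200 summed counts, 2 were at least 1.5-fold higher and 0 lower, where 1.99% and 3.14% of all such genes were, and their median was 0.30.

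**Figure D2:**
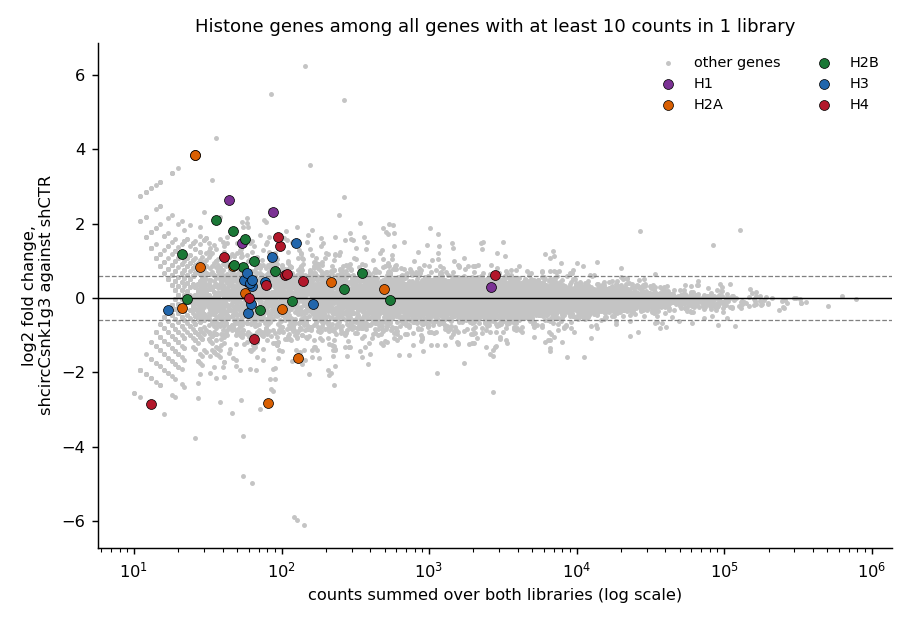
Log2 fold change (y axis) against the counts summed over both libraries (x axis, log scale) for all 12941 genes tested, with members colored by class and dashed lines at 1.5-fold. Of the members, 44 lie between 20 and 200 summed counts, where grey points spread to both sides, and 7 lie at 200 or more.

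Linker histone H1 showed the widest gap between its most abundant gene and the others. Hist1h1c encodes the somatic linker histone H1.2 and had 1410 counts in shcircCsnk1g3 and 1234 in shCTR, a log2 fold change of 0.30 (0.19 to 0.41). Hist1h1d (H1.3) had 73 and 14 counts, a log2 fold change of 2.33 (1.65 to 3.43). Hist1h1a (H1.1) had 39 and 5 counts, a log2 fold change of 2.64 (1.73 to 4.77). Both genes were thus several-fold higher in shcircCsnk1g3, while Hist1h1c, which held most of the H1 counts, was close to the control. Hist1h1e (H1.4) had 40 and 14 counts, 1.49 (0.71 to 2.61), although it overlaps Hist1h2be on the same strand, and reads in the overlap could have been assigned to either. Hist1h1b (H1.5) had 33 and 26 counts, and its interval spanned 0 (0.42, -0.33 to 1.25). The testis gene Hist1h1t was at 0 in both libraries, at which up to 3 counts, or 0.0765 and 0.0710 CPM, could have been missed.

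Summed, H1 had 1595 counts in shcircCsnk1g3 and 1293 in shCTR, a log2 ratio of 0.41 (0.30 to 0.52). Without Hist1h1c the sums were 185 and 59, a ratio of 3.38 and a log2 ratio of 1.76 (1.33 to 2.2). The size of the H1 difference therefore rests on whether Hist1h1c is counted with it. Hist1h1a and Hist1h1b shared no 50-base word with another member, and Hist1h1d and Hist1h1c shared 2.21% and 8.54% of theirs. The low percent of Hist1h1d goes with a long annotated transcript, since 163 of its 7376 words were shared, and 129 of 1511 in Hist1h1c. Words shared with genes outside the members were not searched.

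H2A was the class whose sum was close to equal, with 619 counts in shcircCsnk1g3 and 635 in shCTR, a log2 ratio of 0.07 (-0.09 to 0.23). Its genes moved to both sides. Hist3h2a, the single H2A gene of the Hist3 cluster, had 261 and 236 counts, 0.25 (-0.01 to 0.51). Hist2h2aa2 had 122 and 96 counts, 0.45 (0.06 to 0.85). They carry the most H2A counts, and the interval of Hist2h2aa2 alone lay above 0.
Hist1h2ag had 8 counts in shcircCsnk1g3 and 73 in shCTR, a log2 fold change of -2.81 (-4.35 to -2.03). Hist1h2ao had 29 and 100 counts, -1.62 (-2.33 to -1.07). Hist1h2ae had 43 and 57 counts, -0.29 (-0.91 to 0.30). The first 2 were the lowest members with at least 50 summed counts.

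Several H2A genes share most of their sequence with another copy, and how their reads were divided cannot be seen in the counts. Of the 50-base words of the Hist1h2ao transcript, 93.5% are also in Hist1h2ap, which had 26 counts in shcircCsnk1g3 and 0 in shCTR. This is at least 9.34-fold higher if shCTR is put at 3 counts and the 26 counts are taken as they stand, and the exact interval begins at 2.82 on the log2 scale. Summed, this pair had 55 and 100 counts, a log2 ratio of -0.75 (-1.26 to -0.27). Every word of Hist2h2aa2 is also in Hist2h2aa1, which likewise had 26 and 0 counts, and the pair summed to 148 and 96, a log2 ratio of 0.73 (0.35 to 1.12). In the first pair the copies stood far apart and their sum was lower, and in the second their sum was higher. Hist1h2ag shares 78.9% of its words with other members. The 14 Hist1 H2A rows summed to 190 and 293 counts, a log2 ratio of -0.52 (-0.79 to -0.25), and the 4 Hist2 H2A rows to 168 and 106, 0.77 (0.41 to 1.14). H2A of these clusters thus stood on opposite sides of the control, with intervals that do not overlap. The lower Hist1 sum rests on few genes, since without Hist1h2ag it was 182 and 220 (-0.17, -0.46 to 0.12), and without Hist1h2ag, Hist1h2ao and Hist1h2ap 127 and 120 (0.19, -0.18 to 0.56). Without these 3 the whole class had 556 and 462 counts, a log2 ratio of 0.37 (0.19 to 0.56).

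H2B, the partner of H2A in the nucleosome, had 1009 counts in shcircCsnk1g3 and 809 in shCTR, a log2 ratio of 0.43 (0.29 to 0.56). Hist1h2bc, its most abundant gene, had 258 and 286 counts, -0.04 (-0.29 to 0.21). Hist2h2be had 210 and 141 counts, 0.67 (0.37 to 1.0). Hist1h2bj had 138 and 126 counts, 0.24 (-0.12 to 0.60). Of these 3, Hist2h2be alone had an interval above 0. It shares no 50-base word with another member, and no stem-loop was found in its annotated transcript of 2620 bases.
Hist1h2bn had 43 counts in shcircCsnk1g3 and 14 in shCTR, 1.59 (0.83 to 2.71). The Hist2h2bb row annotated as protein coding had 37 and 10 counts, 1.80 (0.96 to 3.17), and the noncoding row of this symbol, which overlaps it on the same strand, had 6 and 2. Hist1h2bk had 55 and 63 counts, -0.09 (-0.64 to 0.46), and Hist1h2bh 30 and 41, -0.32 (-1.07 to 0.37). Of the 14 H2B genes with enough counts, 9 were at least 1.5-fold higher and 0 lower, and their median was 0.79. Among the 9, Hist1h2bl (30 and 6 counts) and Hist1h2br (15 and 6) reached the minimum of 10 in shcircCsnk1g3 alone, so that they had to be higher. The interval of Hist1h2br spanned 0 (-0.02 to 3.08). Of all genes tested 5.39% were higher and 6.31% lower by this measure, and 11 of these 14 genes had at least 20 and under 200 summed counts, where the shares were 19.1% and 18.8%. Without Hist1h2bc the class sums were 751 and 523, a log2 ratio of 0.63 (0.47 to 0.79).

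H3 carries many of the tail residues that are modified in chromatin. The 12 genes of this class had 496 counts in shcircCsnk1g3 and 395 in shCTR, a log2 ratio of 0.44 (0.24 to 0.63). Hist1h3c had the most counts, 74 and 90, -0.17 (-0.64 to 0.29). Hist2h3c2 had 91 and 34 counts, 1.47 (0.94 to 2.14). Hist1h3f had 58 and 28 counts, 1.1 (0.48 to 1.86). Of the 12 H3 intervals, only these last 2 lay above 0 and none lay below it. The shares of all genes tested were 26.9% and 28.2%, mostly from genes with at least 200 summed counts. Of the 12 H3 genes, 11 had at least 20 and under 200, so that these shares are not of like depth. Hist2h3b had 43 and 34 counts, 0.42 (-0.24 to 1.14), and Hist2h3c1 34 and 27, 0.41 (-0.33 to 1.23). Hist2h3b shares 79.7% of its words with Hist2h3c1 and the same share with Hist2h3c2, so the Hist2 H3 genes are best read together, at 168 and 95 counts (log2 ratio 0.93, 0.56 to 1.31). Hist1h3g, at 24 and 35 counts, was the lowest H3 gene (-0.41, -1.25 to 0.35).

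H4 had the most counts and the largest ratio of the 5 class sums, with 2119 counts in shcircCsnk1g3 and 1498 in shCTR, a log2 ratio of 0.61 (0.51 to 0.70). Most of them belonged to Hist1h4i, with 1637 and 1155 counts, 0.61 (0.50 to 0.72). Its level per exonic length was 57.4 CPM per kilobase in shcircCsnk1g3 and 37.6 in shCTR, the highest of the members in both. The next was Hist1h1c, at 23.1 and 18.7 CPM per kilobase, while the median of the 53 members was 1.56 and 0.932. Hist1h4i and Hist1h1c, which both have annotated transcripts that run past the stem-loop, together held 52.2% and 51.6% of the histone counts.
Without Hist1h4i the H4 sums were 482 and 343 counts, a log2 ratio of 0.60 (0.40 to 0.80), nearly the same as with it. Hist2h4 had 71 and 23 counts, 1.65 (1.04 to 2.48), and shares 1.01% of its words with other members. Hist1h4b had 65 and 44 counts (0.65, 0.10 to 1.26), Hist1h4c had 63 and 43 (0.63, 0.08 to 1.25) and Hist1h4d had 79 and 61 (0.47, -0.02 to 0.99). These are the next most abundant H4 genes, and the interval of Hist1h4d spanned 0.
Hist1h4k was lower, with 19 and 46 counts, -1.09 (-2.02 to -0.37). Hist1h4m had 70 and 27 counts, 1.41 (0.82 to 2.18). Hist1h4n, which shares 83.2% of its words with Hist1h4m, had 0 and 13 counts. This is at least 4.02-fold lower only if shcircCsnk1g3 is put at 3 counts and the 13 counts are taken as they stand. The exact interval of Hist1h4n ends at -1.50 on the log2 scale, which allows a smaller difference. This pair summed to 70 and 40, a log2 ratio of 0.91 (0.33 to 1.51).

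As shares of all histone counts within a library, which do not depend on the scaling between libraries, H2A and H4 differed by more than counting error. H2A held 10.6% (exact interval 9.82% to 11.4%) in shcircCsnk1g3 and 13.7% (12.7% to 14.7%) in shCTR. H4 held 36.3% (35.1% to 37.5%) and 32.4% (31.0% to 33.7%). The shares of H1 (27.3% and 27.9%), H2B (17.3% and 17.5%) and H3 (8.50% and 8.53%) had overlapping intervals. When Hist1h4i and Hist1h1c were left out, the H4 intervals overlapped (17.3%, 15.9% to 18.7%, and 15.3%, 13.8% to 16.9%), and H1 held 6.63% (5.73% to 7.62%) against 2.63% (2.01% to 3.38%). Without those 2 genes H2A still had the lower share in shcircCsnk1g3, at 22.2% (20.6% to 23.8%) and 28.3% (26.5% to 30.3%). When Hist1h2ag, Hist1h2ao and Hist1h2ap were left out instead, H2A held 9.63% (8.88% to 10.4%) and 10.4% (9.49% to 11.3%), with overlapping intervals.

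By genomic cluster, Hist2 on chromosome 3 had the larger ratio. The 55 Hist1 rows, on chromosome 13, had 4910 counts in shcircCsnk1g3 and 4015 in shCTR, a log2 ratio of 0.40 (0.34 to 0.46). The 11 Hist2 rows had 660 and 377 counts, a log2 ratio of 0.92 (0.73 to 1.1). Of its 9 rows tested, 6 had an interval above 0 and 0 below it, where 26.9% and 28.2% of all genes tested did. In H2A, H2B and H3 alike the Hist2 sum had the larger ratio (0.77, 0.83 and 0.93, against -0.52, 0.31 and 0.24 in Hist1). The intervals of these clusters did not overlap in any of these 3 classes, although in H2A they do once Hist1h2ag, Hist1h2ao and Hist1h2ap are left out. Hist4h4, the single gene of the Hist4 cluster, had 7 and 2 counts, and its interval, from -0.48 to 5.22, spanned 0.

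**Figure D3:**
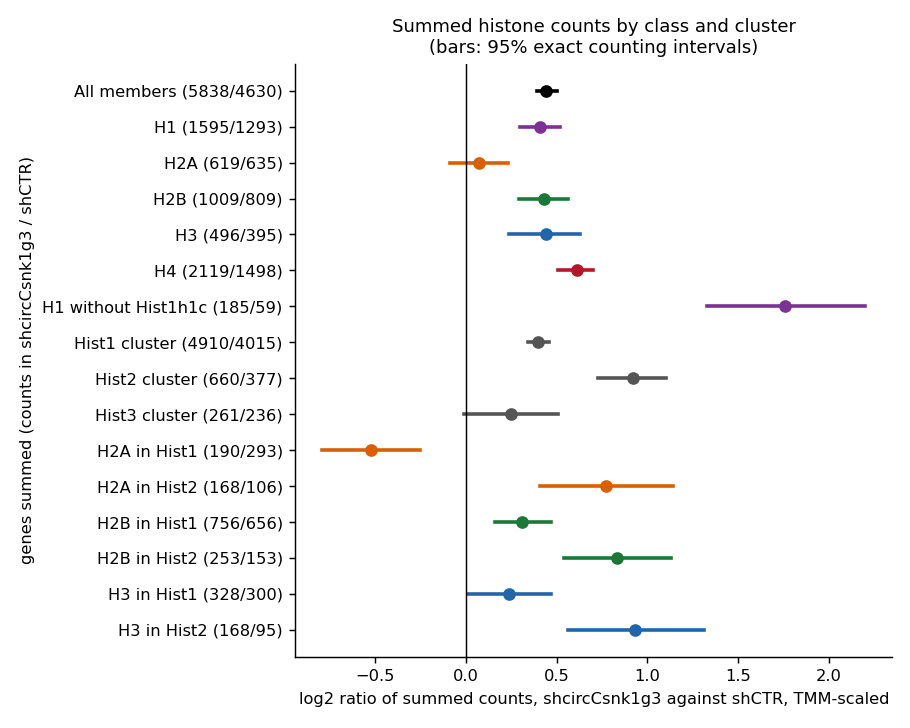
Log2 ratio of the summed, TMM-scaled counts (x axis) for all members, the 5 classes, the clusters and the classes within Hist1 and Hist2, with the sums in shcircCsnk1g3 and shCTR beside each name and 95% exact counting intervals as bars. H2A sits near 0 as a class, at -0.52 in Hist1 and 0.77 in Hist2, and H1 without Hist1h1c is at 1.76.

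Copies of a class share sequence, and the members were therefore also summed by how much they share. The median member had 49.3% of its 50-base words in another member, and 29 members shared at least 50% with 1 gene of their own class. Between members of different classes, words were shared only by Hist1h1e and Hist1h2be, which overlap. The 20 members with under 25% of their words in other members had 2398 counts in shcircCsnk1g3 and 1921 in shCTR, a log2 ratio of 0.43 (0.34 to 0.51). The other 49 had 3440 and 2709, a log2 ratio of 0.45 (0.38 to 0.53). The gene with the most counts was Hist1h1c in the first group and Hist1h4i in the second. Without these genes the first had 988 and 687 counts, 0.63 (0.49 to 0.77), and the second 1803 and 1554, 0.32 (0.22 to 0.42). Both groups were higher in shcircCsnk1g3 with and without them, and the part of read assignment in these values was not tested.

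H2A and H2B genes often lie head to head and share the region between their starts. There were 12 such pairs, with 175 to 305 bases between the annotated starts. Their H2A genes summed to 175 counts in shcircCsnk1g3 and 269 in shCTR, and their H2B genes to 815 and 684. Most of the H2A counts of shCTR came from Hist1h2ag (8 and 73 counts) and Hist1h2ao (29 and 100). The lower H2A sum thus rests on these genes and is not a trait of the pairs in general. In 8 pairs the H2B gene had more counts than the H2A gene. In the pair of Hist1h2ag and Hist1h2bj the H2A gene stood at -2.81 and the H2B gene at 0.24 (-0.12 to 0.60), and in Hist1h2ae and Hist1h2bg at -0.29 (-0.91 to 0.30) and 1.01 (0.30 to 1.89). In Hist1h2ak and Hist1h2bn both were higher, at 0.85 (0.02 to 1.88) and 1.59, and this was the 1 pair with both intervals above 0. In Hist2h2ac and Hist2h2be the values were 0.83 (-0.24 to 2.23) and 0.67, and in Hist1h2ai and Hist1h2bl the counts were 5 and 0 for the H2A gene and 30 and 6 for the H2B gene. Of the 12 pairs, 9 had counts in both genes, and in 0 of these did the intervals lie on opposite sides of 0.

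Promoter sequence is given for an H1 gene, an H4 gene and a head-to-head pair because the classes differ in their promoter letters. Promoters from 250 bases before to 50 bases after the start were taken from RefSeq (GRCm38.p6), where 61 of the 68 symbols matched and gave 62 distinct promoters, and both strands were searched for letters that do not contain one another. The octamer ATTTGCAT was in 7 of 17 H2A and 7 of 17 H2B promoters (41.2% of each), some of which overlap in head-to-head pairs, and in 1.74% of all 32851 promoters, but in 0 of the 6 H1, 10 H3 and 12 H4 promoters. AAACACA, known as the H1 box, was in 5 of 6 H1 promoters (83.3%) and in 7.18% of all. GGTCCG, an element known from H4 genes, was in 11 of 12 H4 promoters (91.7%) and in 8.25% of all. CCAAT was in 100% of H1, H2A, H2B and H3 promoters, in 25% of H4 promoters and in 37.4% of all. TATAAA was in 40.0% to 66.7% of each class and in 13.6% of all.
The 250 bases before the start of 3 members follow, with those letters in capitals on either strand.
Hist1h1d, H1, chr13:23554782-23555031 on the plus strand: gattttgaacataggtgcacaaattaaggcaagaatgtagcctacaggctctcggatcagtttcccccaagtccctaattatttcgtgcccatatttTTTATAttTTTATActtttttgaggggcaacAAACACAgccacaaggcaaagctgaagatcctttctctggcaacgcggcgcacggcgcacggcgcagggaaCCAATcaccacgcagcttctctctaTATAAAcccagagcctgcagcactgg
Hist1h4i, H4, chr13:22041363-22041612 on the minus strand: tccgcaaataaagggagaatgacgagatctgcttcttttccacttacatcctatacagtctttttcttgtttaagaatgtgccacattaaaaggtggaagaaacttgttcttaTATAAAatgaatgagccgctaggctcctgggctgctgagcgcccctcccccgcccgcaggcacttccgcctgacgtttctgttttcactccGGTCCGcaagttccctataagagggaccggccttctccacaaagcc
Hist1h2bj, H2B, chr13:22042948-22043197 on the plus strand, shared with Hist1h2ag: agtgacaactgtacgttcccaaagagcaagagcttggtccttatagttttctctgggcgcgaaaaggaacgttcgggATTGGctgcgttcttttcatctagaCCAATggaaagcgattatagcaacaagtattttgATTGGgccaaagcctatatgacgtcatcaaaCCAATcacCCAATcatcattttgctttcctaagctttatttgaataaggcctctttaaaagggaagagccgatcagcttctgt
Hist1h1d holds AAACACA and CCAAT, Hist1h4i holds GGTCCG but no CCAAT, and the stretch between Hist1h2bj and Hist1h2ag holds CCAAT on both strands and no octamer. The H1 and H4 genes printed were both higher in shcircCsnk1g3, by 2.33 and 0.61, while Hist1h2bj and Hist1h2ag, which share the third stretch, stood at 0.24 and -2.81.

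The members also differ in where their annotated transcripts end, which bears on what a poly(A) library can hold. In 22 members the transcript runs at least 100 bases past the stem-loop, and these held 4088 counts in shcircCsnk1g3 and 3113 in shCTR, a log2 ratio of 0.50 (0.43 to 0.57). In 22 it ends within 100 bases of the stem-loop, with 866 and 810 counts, 0.20 (0.06 to 0.34). The first group thus held most of the counts and had the larger summed ratio, while the medians of both were 0.47. No stem-loop was found in 17 members annotated with under 60 bases after the stop codon, which had 356 and 225 counts, 0.77 (0.52 to 1.02). The 6 without a stem-loop in a longer end had 522 and 480, 0.23 (0.05 to 0.41). The other 2 rows, the noncoding Hist2h2bb row and the processed pseudogene Hist1h2al, have no annotated coding sequence. These counts do not show whether a read came from a transcript with a tail.

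Genes around histone supply were measured at far greater depth than most members. Of the 106 tested genes in 4 lists, 105 had at least 200 summed counts, where 1.99% of all genes were at least 1.5-fold higher and 3.14% lower, so that counts of 0 or 1 past this fold lie near the background. Of 11 replication-independent histone genes with enough counts, 0 passed 1.5-fold, and their median was 0.10. Summed, this list had 131992 counts in shcircCsnk1g3 and 121285 in shCTR, a log2 ratio of 0.23 (0.22 to 0.24). H1f0, a linker histone of resting and differentiated cells, had 36991 counts in shcircCsnk1g3 and 29048 in shCTR (0.46), H3f3b, which encodes H3.3, had 35942 and 30442 (0.35), and H2afz had 33146 and 33286 (0.10). Of the 11 genes, 7 had intervals above 0 and 3 below it, and among all genes with at least 200 summed counts the shares were 29.5% and 31.0%.
Of 27 factors of histone mRNA transcription, processing and decay, 0 passed 1.5-fold in either direction, with a median of -0.05. The list includes Slbp, which binds the stem-loop (0.04), and Npat, the coactivator of the clustered genes (-0.08). Its members with the most counts were Snrpb (-0.05), Sympk (0.15) and Ncbp1 (-0.13). Of 21 histone chaperone and import genes, 0 passed it, with a median of 0.02, and the most abundant were Npm1 (0.07), Set (0.02) and Nap1l1 (0.02). Of 47 S phase and DNA replication genes, 0 were at least 1.5-fold higher and 1 lower, the cyclin gene Ccne2 (-0.66), with a median of 0.00. Mcm5 (0.04) and Mcm6 (0.10), subunits of the replicative helicase, and Uhrf1 (0.10) had the most counts.

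Rows tied to ribosomal RNA, which has no poly(A) tail either, were higher in the same library. Yam1 had 99090 counts in shcircCsnk1g3 and 29819 in shCTR (1.84), Gm42418 had 60389 and 24337 (1.42) and Lars2, whose transcripts can draw reads of this kind, had 20448 and 6360 (1.79), whereas Gm26917 had 4923 and 5278 (0.01). The part of RNA selection in the histone difference was not tested. A list of other RNAs without a tail held, besides 1 small nucleolar RNA, 8 rows with Mir in the symbol, which are host genes or long noncoding RNAs and may carry a tail. Snora26, the small nucleolar RNA, had 173 and 214 counts (-0.20), so that it was not higher in shcircCsnk1g3, and the 9 rows summed to 608 and 720, a log2 ratio of -0.14 (-0.29 to 0.02), with 5 tested and a median of -0.20. Of these 5, only Mir155hg passed 1.5-fold, downward, at 6 and 14 counts (-0.91, -2.78 to 0.36), and Mirt1 (-0.18) and Mir17hg (0.11) were the other two with the most counts beside Snora26.

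**Figure D4:**
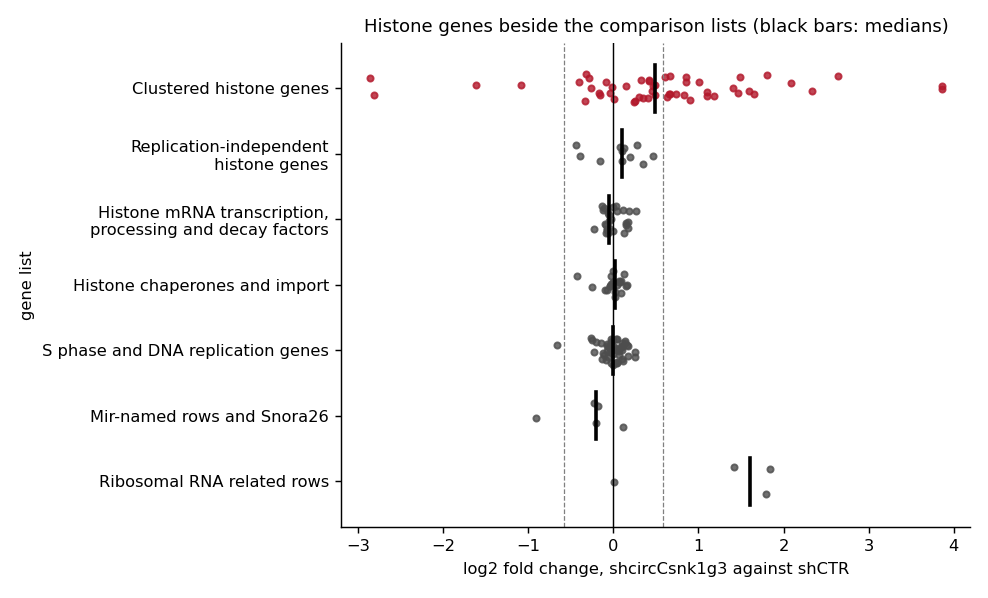
Log2 fold change (x axis) of each tested gene of the clustered histone genes and of 6 comparison lists (y axis), with black bars at the medians and dashed lines at 1.5-fold. The histone genes spread from -2.86 to 3.86 around 0.49, and 3 of the 4 rows tied to ribosomal RNA lie above 1.4. The genes of the histone-related and S phase lists lie between -0.66 and 0.46.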

How the data were processed

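Poly(A)-selected RNA of 1 library per condition was sequenced. The authors aligned reads to GRCm38 with STAR and estimated counts per gene with RSEM, in which a read that fits several genes is split among them. The deposited estimated counts are whole numbers without normalization, for 25509 genes and 92 spike-in rows that are 0 and were left out. A second deposited table gives a TMM-scaled signal for 11624 genes, 17 of them members, each column being the counts times a constant. It was used only as an alternative. The GENCODE release is not given in the sources used here. Identifiers were matched to M21 (25251 of 25509), and 2 members by symbol.

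TMM factors came from edgeR 4.0.16 in R 4.3.3, computed from the genes that reached 10 counts in either library. Other steps ran in python 3.11.15 (scipy 1.17.1, numpy 2.4.6, pandas 2.3.3). With 1 library per condition no p-value was computed, and values at 3 counts or fewer were taken as being at the floor. Intervals cover counting error only, and PCR duplicates are not removed by them. Fold changes of genes with few counts are shrunk by the prior count of 2, while intervals come from the counts alone. Shared sequence was measured as the percent of 50-base words of a transcript found in another member. Fold changes and intervals were tested on simulated counts.

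The members and gene lists were chosen with earlier results of these data known. Genes named are the 4 with the most counts in each class, the 6 highest and 6 lowest with at least 50 summed counts, members of H1, Hist2, Hist3 and Hist4, partners of head-to-head pairs, copies that share most of their sequence with a named gene, and for comparison lists the 3 with the most counts, those past 1.5-fold, and Slbp and Npat. These last 2 and the copies (among them Hist1h4n and Hist1h2ap) were chosen after their values were seen. Alternatives were size factors of DESeq2 1.42.0, total counts, the TMM-scaled table, prior counts of 0.5 and 10, other count minimums, other folds and leaving out abundant members.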

Additional observations from a re-analysis of the deposited data

How the results depend on the processing

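No paired analysis was possible because there is 1 library per condition, and for this reason no replicate could be left out. The log2 ratio of all summed histone counts kept its sign under every scaling and filter run, from 0.38 without the most abundant member to 0.47 with total counts, which moved the median of all genes to 0.03. Limiting the members to those with under 25% of their words in other members, or leaving out the 2 most abundant, both chosen after seeing the data, gave 0.43 and 0.42. The median of the members was 0.62 without a count filter and 0.30 with at least 200 summed counts. Of 53 tested members, 25 were at least 1.5-fold higher (5.39% of all genes), 15 at least 2-fold (2.13%) and 5 at least 4-fold (0.379%). At 1.5-fold, 15 of 39 members with at least 50 summed counts (3.42% of all such genes), 2 of 7 with at least 200 (1.99%) and 7 of 17 in the TMM-scaled table (3.03%) were higher. Lower by 1.5-fold were 4 members (6.31%), 2 of them by 4-fold (0.402%), with 3 of 39 (4.5%), 0 of 7 (3.14%) and 1 of 17 (4.54%) under the same limits.

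The H2A median reversed, from 0.25 to -0.07 with at least 50 summed counts and to -0.02 in the TMM-scaled table, which holds 4 H2A genes, and was 0.45 without a filter. The H2A sum was -0.15 with at least 50 and 0.31 with at least 200 summed counts. Without Hist1h2ag, Hist1h2ao and Hist1h2ap, a choice made after seeing the data, it was 0.37, and the Hist1 H2A sum went from -0.52 to 0.19 with an interval spanning 0 (-0.18 to 0.56). Without Hist1h2ag alone that sum stayed below 0, at -0.17 (-0.46 to 0.12). The H1 median was 1.49, and 0.90 in the TMM-scaled table, 1.13 with a prior count of 10, 0.96 with at least 50 and 0.30 with at least 200 summed counts, and 1.91 without Hist1h1c. The H1 sum was 0.30 with at least 200 summed counts and 1.76 without Hist1h1c. The H2B median was 0.10 in the TMM-scaled table and 0.24 with at least 200 summed counts. The H2B sum was 0.21 in that table, 0.24 with at least 200 summed counts and 0.63 without Hist1h2bc. The H3 median was 0.65 in the TMM-scaled table. Summing a class before taking the ratio, also chosen after seeing the data, gave 0.41 for H1, 0.07 for H2A and 0.43 for H2B. The Hist1 median was 0.30 in the TMM-scaled table and 0.27 with at least 200 summed counts. The Hist2 median was 0.64 with a prior count of 10, 1.03 without a filter, and 0.56 with at least 50 and with at least 200 summed counts. These filters test fewer genes, and for the other changes the cause was not tested. Of 328 values of single genes under the alternatives, 0 reversed and 3 moved beyond their counting interval, all with a prior count of 10. Depth limits most members, at 28 counts in the median tested gene of shCTR.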
